A study of Homo sapiens with 4 samples.

Results

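The BCL2 family sets the threshold at which a cell releases cytochrome c from its mitochondria and dies by apoptosis. H3K4me3, a histone mark of active promoters, was examined here at 10 genes of this family in HCC1428, a cell line established from a luminal breast cancer. The genes are BCL2, BCL2L1 and MCL1, BAX and BAK1, and BBC3, BCL2L11, BID, PMAIP1 and BIK. Members were the peaks annotated to one of these genes with a centre no more than 5 kb from its transcription start site (TSS), which gave 22 of the 110018 peaks of the table and of the 34521 peaks within 5 kb of any TSS. All 10 genes had at least 1 such peak, out of 18346 genes that had one. Of the 22 member peaks, 21 had a mean deposited value of at least 5 and were tested, and a BAK1 peak 2994 bp downstream of the TSS was below this minimum.

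Cells of this line, wild type by its label, were given 2.5 µM C48, an inhibitor of the KDM5 enzymes that take methyl groups off H3K4, or DMSO, the vehicle, and were collected on day 5. Each group had 2 libraries, made by CUT&Tag, in which an antibody to the mark guides the transposase Tn5 to cut the DNA beside it. The labels call the libraries biological replicates, but do not name separate cultures. P-values therefore reflect only how these 4 samples spread, and that spread may be technical. The variance behind each SE and p-value was drawn toward that of other peaks or genes with similar signal. The cells were frozen before the assay, all came from a single line, and no RNA or protein level is part of these data.

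Proteins of this family fall into 3 roles. BCL2, BCL2L1 (Bcl-xL) and MCL1 protect the mitochondrial outer membrane, and BAX and BAK1 form the pores that permeabilise it. The BH3-only proteins BBC3 (PUMA), BCL2L11 (BIM), BID, PMAIP1 (NOXA) and BIK sense stress and either block the protectors or activate the pore formers, and luminal breast cancer cells are known to rely on the protectors to differing degrees.

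Depth was 58.4 and 72.7 M aligned tags for C48 and 88.4 and 64.6 M for DMSO. Peaks took up 64.0% to 66.3% of the tags. Values are tags per 10 M aligned tags, brought to a common scale with TMM factors, which take most peaks as unchanged. The choice of scale set many directions. The median log2 fold change of all 15615 tested gene sums was -0.31 with TMM, -0.47 with DESeq2 factors, 0.018 as deposited and 0.060 on the column total, while it was 0.42 when libraries were scaled on the promoters of ribosomal protein genes. Relative to TMM these scales moved the C48 to DMSO difference by -0.16, 0.33, 0.37 and 0.73. None of the 5 scales used the spike-in, fly nuclei that the study added to its samples for scaling. A sign kept on all 5 therefore does not settle the direction of a change shared by all regions. The luminal genes KRT8, KRT18, KRT19, EPCAM, CDH1, ESR1, GATA3 and FOXA1 all carried the mark, between 77.8 tags for KRT18 in a C48 library and 1888 for KRT8 in a DMSO library, whereas 0 of 4 blood markers reached the minimum. These markers fit luminal epithelium and do not tell 1 luminal line from another. Of the 4 basal markers TP63 alone reached the minimum and was higher in C48 cells (1.90), and the stromal marker COL1A1 also carried the mark, with 842 and 879 tags in C48 cells and 955 and 1013 tags in DMSO cells, and their part in the results was not tested. All 8 luminal genes were lower in C48 cells with TMM (median -0.64) and 5 of them were above 0 on the ribosomal protein scale.

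With TMM scaling, H3K4me3 near the TSS was lower in C48 cells at the protectors, at BAX and at most BH3-only genes, was level at BAK1 and was slightly higher at BID. This direction holds relative to the other peaks of the same libraries and was not kept on every scale. Of the 10 gene sums, which add all member peaks of a gene, 1 rose (BID), 7 fell and 2 did not pass the test (BAK1 and BIK), with a median log2 fold change of -0.49. Among all genes, 21.6% rose and 60.5% fell with the same limma fit and threshold, an adjusted p of 0.05, so the share of the family that fell was near this background. On the ribosomal protein scale 8 of the 10 sums rose and 1 fell, as deposited 3 rose and 6 fell, and with DESeq2 factors 0 rose and 9 fell. Of all 15615 gene sums, 11665 rose and 1030 fell on the ribosomal protein scale. As deposited 6171 rose and 5810 fell, and with DESeq2 factors 2464 rose and 10551 fell, so the background moved with the scale too. A change of scale shifts all genes by nearly the same amount, so differences between genes do not turn on it, and BID stood 1.02 above MCL1 in log2 fold change.

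**Figure D1:**
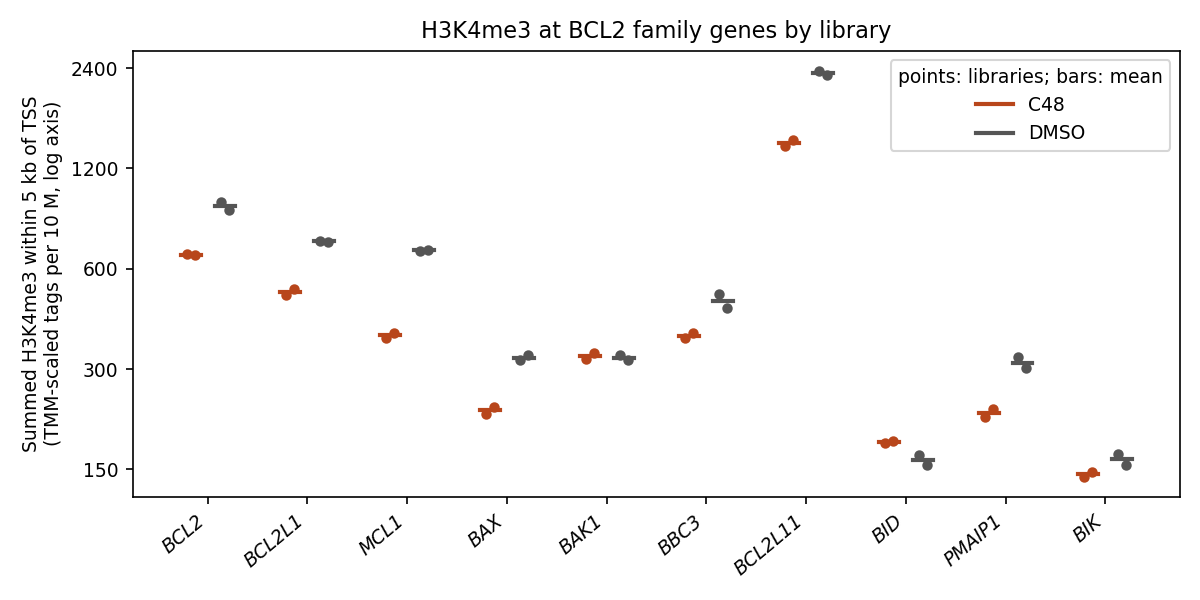
Summed H3K4me3 within 5 kb of the TSS (y axis, TMM-scaled tags per 10 M aligned tags, log axis) for each of the 10 genes (x axis), with 2 C48 libraries (left, orange) and 2 DMSO libraries (right, grey) as points and the group mean as a bar. Both C48 libraries lay below both DMSO libraries at BCL2, BCL2L1, MCL1, BAX, BBC3, BCL2L11, PMAIP1 and BIK, above them at BID, and overlapped them at BAK1. Such separation was not counted over all genes and does not set these genes apart.

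Per kb of peak and with TMM scaling, the genes differed more from one another than between the groups. BCL2L11 had the highest density, 574 tags per kb in C48 cells and 927 in DMSO cells. BCL2L1 and MCL1 followed, with 413 and 391 tags per kb in C48 cells, against 585 and 705 tags per kb in DMSO cells, so that MCL1 stood below BCL2L1 in C48 cells and above it in DMSO cells, with no overlap of the libraries in either group. The densities of BBC3 and BCL2 overlapped in C48 cells (303 and 298 tags per kb), and those of PMAIP1 and BAX overlapped in both groups. In DMSO cells BBC3 (385 tags per kb) overlapped both PMAIP1 (375) and BAX (372) as well. BID and BIK were lowest, at 156 and 155 tags per kb in C48 cells and 138 and 172 in DMSO cells. They overlapped in C48 cells and were apart in DMSO cells.

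MCL1 encodes a short-lived protector whose level responds quickly to transcription. Its gene sum was 372 and 385 tags in C48 cells, against 681 and 684 tags in DMSO cells. The groups did not overlap and the C48 libraries differed from each other by far less than from DMSO. The log2 fold change was -0.85 ± 0.048 (SE, n = 2 per group, limma adjusted p = 1.35e-41), at percentile 6.62 of all gene sums, and it stayed below 0 on all 5 scales, from -1.01 with DESeq2 factors to -0.12 on the ribosomal protein scale. As none of these scales used the spike-in, this sign is relative to other regions of the same libraries. MCL1 had a pair of peaks. The peak centred 20 bp downstream of the TSS (chr1:150579464-150579716, hg38) had 99.7 and 117 tags in C48 cells and 212 and 230 tags in DMSO cells, a change of -1.03 ± 0.080 (limma adjusted p = 4.25e-17). This was the lowest fold change of all 21 tested member peaks with TMM. The wider peak at 638 bp, in exon 1, had 273 and 268 tags in C48 cells and 469 and 454 tags in DMSO cells, a change of -0.77 with TMM that was -0.037 and did not pass the test on the ribosomal protein scale. GENCODE places the start of another gene, ENSG00000290074, within 1 kb of the MCL1 peaks, and tags were not assigned to a strand.

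BCL2L1 encodes Bcl-xL, the protector whose splice forms have opposite effects on survival. Its gene sum was 502 and 523 tags in C48 cells, against 729 and 724 tags in DMSO cells, a change of -0.50 ± 0.045 (limma adjusted p = 2.55e-22). The groups were well apart under TMM, while the sum was higher in C48 cells on the ribosomal protein scale (0.23). The 3 peaks did not move alike. Each was measured from the start of a different transcript, and along the gene, on the minus strand, the peak at 429 bp lies upstream of the others. The peak at 429 bp (chr20:31723231-31723837) had 184 and 182 tags in C48 cells and 339 and 323 tags in DMSO cells, a change of -0.85 that kept its sign on all 5 scales, although it no longer passed the test on the ribosomal protein scale (-0.12, limma adjusted p = 0.093). The peak 37 bp upstream had 191 and 197 tags in C48 cells and 272 and 276 tags in DMSO cells, a change of -0.50 with TMM that did not pass the test on the column total (-0.12, limma adjusted p = 0.070) and was 0.23 on the ribosomal protein scale. The third peak, at 356 bp in exon 2 and measured from the start of another transcript, had 126 and 144 tags in C48 cells and 118 and 124 tags in DMSO cells. Its libraries were slightly higher in C48 cells, but the difference of 0.15 ± 0.085 did not pass the test (limma adjusted p = 0.098), and it did without C48 replicate 1 (0.25, limma adjusted p = 0.032). It also passed as higher as deposited (0.48), on the column total (0.52) and on the ribosomal protein scale (0.88), and was -0.0052 with DESeq2 factors. GENCODE places the start of the noncoding gene ABALON within 1 kb of these peaks.

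BCL2, the founding member and the target of BH3 mimetic drugs, had 4 peaks, the most of any gene here. Its gene sum was 663 and 660 tags in C48 cells, against 951 and 903 tags in DMSO cells, a change of -0.48 ± 0.041 (limma adjusted p = 8.74e-24) with TMM and of 0.25 on the ribosomal protein scale. The loss under TMM lay in the peaks nearest the TSS and in the gene body. The peak 574 bp upstream had 285 and 263 tags in C48 cells and 431 and 399 tags in DMSO cells, and the peak at 1133 bp had 215 and 222 tags in C48 cells and 353 and 334 tags in DMSO cells, changes of -0.60 and -0.65 that turned to 0.13 and 0.081 on the ribosomal protein scale. A weaker peak at 724 bp had 37.4 and 36.4 tags in C48 cells and 56.9 and 43.2 tags in DMSO cells, a change of -0.42 with TMM. It no longer passed the test without DMSO replicate 1 (-0.22, limma adjusted p = 0.22), as deposited (-0.093) or on the column total (-0.052), and was 0.30 on the ribosomal protein scale. The outermost peak, 1518 bp upstream, had 126 and 139 tags in C48 cells and 110 and 127 tags in DMSO cells. Its groups overlapped and its difference of 0.16 ± 0.086 did not pass the test (limma adjusted p = 0.099), though it did without DMSO replicate 2 (0.26, limma adjusted p = 0.019). It also passed as higher as deposited (0.49), on the column total (0.53) and on the ribosomal protein scale (0.88), and was -0.0026 with DESeq2 factors. HOMER, the authors' peak caller, had detected this outer peak in both C48 libraries and in neither DMSO library, and the peak 574 bp upstream in neither C48 library and in both DMSO libraries.

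The pore formers differed from each other. BAX, whose product moves from the cytosol to mitochondria on activation, had a gene sum of 221 and 230 tags in C48 cells, against 319 and 331 tags in DMSO cells. The groups did not overlap, and the change was -0.53 ± 0.061 (limma adjusted p = 7.17e-15) with TMM and 0.21 on the ribosomal protein scale. BAK1, whose product sits in the mitochondrial membrane, had 321 and 334 tags in C48 cells and 330 and 320 tags in DMSO cells. Its libraries overlapped, and the change was 0.012 ± 0.057 (limma adjusted p = 0.85), from -0.15 with DESeq2 factors to 0.74 on the ribosomal protein scale, with 0.34 as deposited. The difference between BAK1 and MCL1 in log2 fold change was 0.86.

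Within BAK1 and BAX, with TMM, weak side peaks rose beside a strong peak that did not. The strong BAK1 peak at 441 bp, in intron 1, had 297 and 302 tags in C48 cells and 320 and 308 tags in DMSO cells, a change of -0.067 ± 0.058 that did not pass the test (limma adjusted p = 0.30). It passed as lower with DESeq2 factors (-0.23, limma adjusted p = 0.0024) and as higher as deposited (0.26), on the column total (0.31) and on the ribosomal protein scale (0.66). The BAK1 peak at 1297 bp, also in intron 1, had 22.9 and 30.6 tags in C48 cells and 8.61 and 10.6 tags in DMSO cells, and these rest on 151 and 248 counted tags in C48 cells and 68 and 61 in DMSO cells. The C48 libraries were both above the DMSO libraries, and the change of 1.38 ± 0.21 (limma adjusted p = 6.71e-08) was the highest of the member peaks and kept its sign and its call on all 5 scales, from 1.23 to 2.06. It stood 1.45 above the strong BAK1 peak on the log2 scale and at percentile 92.6 of all tested peaks. HOMER had detected neither this peak nor the BAX side peak in any C48 or DMSO library. The BAX peak 371 bp upstream had 19.6 and 19.1 tags in C48 cells and 11.8 and 13.8 tags in DMSO cells, from 129 and 155 counted tags in C48 cells and 93 and 79 in DMSO cells. Its change of 0.57 ± 0.21 passed the test (limma adjusted p = 0.013), but it did not without C48 replicate 1, C48 replicate 2 or DMSO replicate 1 (limma adjusted p = 0.083, 0.062 and 0.062), and it did not with DESeq2 factors (0.42, limma adjusted p = 0.068). The strong BAX peak at 212 bp, in intron 1 of a BAX transcript, had 201 and 211 tags in C48 cells and 307 and 317 tags in DMSO cells, a change of -0.60 with TMM and 0.13 on the ribosomal protein scale.

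The sequences of the BAK1 side peak and of a BCL2L11 promoter peak are shown, a CpG-poor peak that rose and a CpG-rich peak that fell. They were chosen by fold change, as the highest of the tested BAK1 peaks and the lowest of the BCL2L11 peaks, and do not show a trend. The strong BAK1 peak at 441 bp was also CpG-poor (2.66 CG dinucleotides per 100 bases) and did not pass the test with TMM. Both printed stretches are hg38 sequence, written along the strand of the gene, with each CG dinucleotide in capitals. The first lies in BAK1 intron 1 (chr6:33578829-33579128, minus strand) and the other upstream of a BCL2L11 TSS (chr2:111120611-111120910, plus strand).
BAK1 intron 1: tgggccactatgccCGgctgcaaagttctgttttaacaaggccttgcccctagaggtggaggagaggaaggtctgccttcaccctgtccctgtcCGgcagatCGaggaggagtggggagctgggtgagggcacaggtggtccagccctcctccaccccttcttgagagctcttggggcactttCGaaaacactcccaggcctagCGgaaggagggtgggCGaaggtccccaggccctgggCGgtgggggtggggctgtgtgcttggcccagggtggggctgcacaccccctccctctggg
BCL2L11 upstream: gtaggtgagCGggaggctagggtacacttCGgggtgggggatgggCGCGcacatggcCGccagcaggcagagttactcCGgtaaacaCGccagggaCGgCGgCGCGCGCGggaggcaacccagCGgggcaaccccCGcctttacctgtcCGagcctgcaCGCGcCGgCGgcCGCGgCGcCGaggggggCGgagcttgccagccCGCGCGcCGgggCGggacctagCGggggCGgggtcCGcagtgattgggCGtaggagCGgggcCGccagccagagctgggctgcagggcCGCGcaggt
The BAK1 stretch of 300 bases holds 7 CG dinucleotides, while the BCL2L11 stretch of 300 bases holds 38.

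BCL2L11 encodes BIM, which binds all protectors and can activate BAX and BAK1. It had the highest summed signal of the family, 1407 and 1465 tags in C48 cells, against 2353 and 2283 tags in DMSO cells. The groups were far apart, and the change of -0.69 ± 0.033 (limma adjusted p = 4.05e-51) put it next to MCL1 in the order of genes, at percentile 16.5 of all gene sums, with 0.041 on the ribosomal protein scale. The peak 153 bp upstream, whose centre is printed above, had 223 and 226 tags in C48 cells and 422 and 443 tags in DMSO cells. Its change of -0.95 ± 0.058 (limma adjusted p = 2.20e-21) kept its sign and its call on all 5 scales, reaching -0.21 on the ribosomal protein scale. The peaks at 660 bp and 1713 bp, both inside intron 1, changed by -0.63 and -0.64, and turned to 0.11 and 0.087 on the ribosomal protein scale. The outer of these had 703 and 737 tags in C48 cells and 1135 and 1117 tags in DMSO cells, the most of any member peak.

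With TMM the other BH3-only genes had smaller fold changes than BCL2L11, while on the ribosomal protein scale theirs were larger. PMAIP1 encodes NOXA, a partner of MCL1, and its 1 peak had 215 and 228 tags in C48 cells and 325 and 301 tags in DMSO cells, a change of -0.50 ± 0.062 (limma adjusted p = 2.14e-13) with TMM. It was -0.17 as deposited, did not pass on the column total (-0.13, limma adjusted p = 0.052) and was 0.23 on the ribosomal protein scale. BBC3 encodes PUMA, a p53 target, and its sum was 371 and 386 tags in C48 cells and 505 and 457 tags in DMSO cells, a change of -0.34 ± 0.051 (limma adjusted p = 5.01e-10). This fall rested on the scale, since it was -0.012 as deposited, 0.030 on the column total and 0.39 on the ribosomal protein scale. The BBC3 peak 83 bp upstream changed by -0.61 (0.11 on the ribosomal protein scale) and the peak at 690 bp by -0.25 (0.086 as deposited, 0.13 on the column total and 0.48 on the ribosomal protein scale).

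BID encodes a BH3-only protein that caspase-8 cleaves to link death receptors to mitochondria. Its 1 peak had 180 and 182 tags in C48 cells and 166 and 155 tags in DMSO cells. The C48 libraries were both above DMSO, and the change of 0.18 ± 0.075 was the sole gene sum of the family that rose (limma adjusted p = 0.025), at percentile 76.9 of all gene sums. The call was weak, as it was lost without either C48 replicate or without DMSO replicate 2 (limma adjusted p = 0.061, 0.098 and 0.18) and with DESeq2 factors (0.016), although the sign was positive on all 5 scales. BIK, whose product acts at the endoplasmic reticulum, had 143 and 148 tags in C48 cells and 167 and 155 tags in DMSO cells. Its libraries did not overlap, but the change of -0.15 ± 0.078 did not pass the test (limma adjusted p = 0.073), and its direction turned with the scale. BIK passed as lower with DESeq2 factors (-0.31, limma adjusted p = 0.00035) and without DMSO replicate 2 (-0.20, limma adjusted p = 0.037). It passed as higher as deposited (0.18), on the column total (0.22) and on the ribosomal protein scale (0.58).

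Counted by peak, 3 of the 21 tested member peaks rose, 14 fell and 4 did not pass the test, with a median of -0.50. Of all peaks within 5 kb of a TSS, 29.5% rose and 47.9% fell with a median of -0.17, and over all tested peaks 37.4% rose and 34.1% fell with a median of 0.085. Of the 22 member peaks, both C48 libraries lay below both DMSO libraries at 16 and above them at 4, and the groups overlapped at 2. This was not counted over all peaks, so it describes the member peaks and does not set them apart. By role, the sums of the 3 protectors all fell with TMM (-0.85 to -0.48, all but MCL1 above 0 on the ribosomal protein scale), 1 of the 2 pore formers fell, and 3 of the 5 BH3-only genes fell and 1 rose. On the ribosomal protein scale both pore formers rose (BAX by 0.21 and BAK1 by 0.74). On the ribosomal protein scale 13 member peaks rose and 2 fell. The 2 were the MCL1 peak at 20 bp (-0.30) and the BCL2L11 peak 153 bp upstream (-0.21). Among all 27166 tested peaks within 5 kb, 20013 rose and 2131 fell on this scale. Of all 110018 peaks, HOMER had detected 37462 and 37867 in the C48 libraries and 30162 and 29745 in the DMSO libraries. It had detected 7 of the 22 member peaks in all 4 libraries and 6 in none, patterns that were not counted over all peaks. Among the 6 were the BAK1 peak at 1297 bp and the BAX peak 371 bp upstream, the weak side peaks that rose with TMM. Another was the BCL2L11 peak at 660 bp, with a mean of 492 tags in C48 cells and 760 in DMSO cells. A peak missing from its list was therefore not always a peak without signal.

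**Figure D2:**
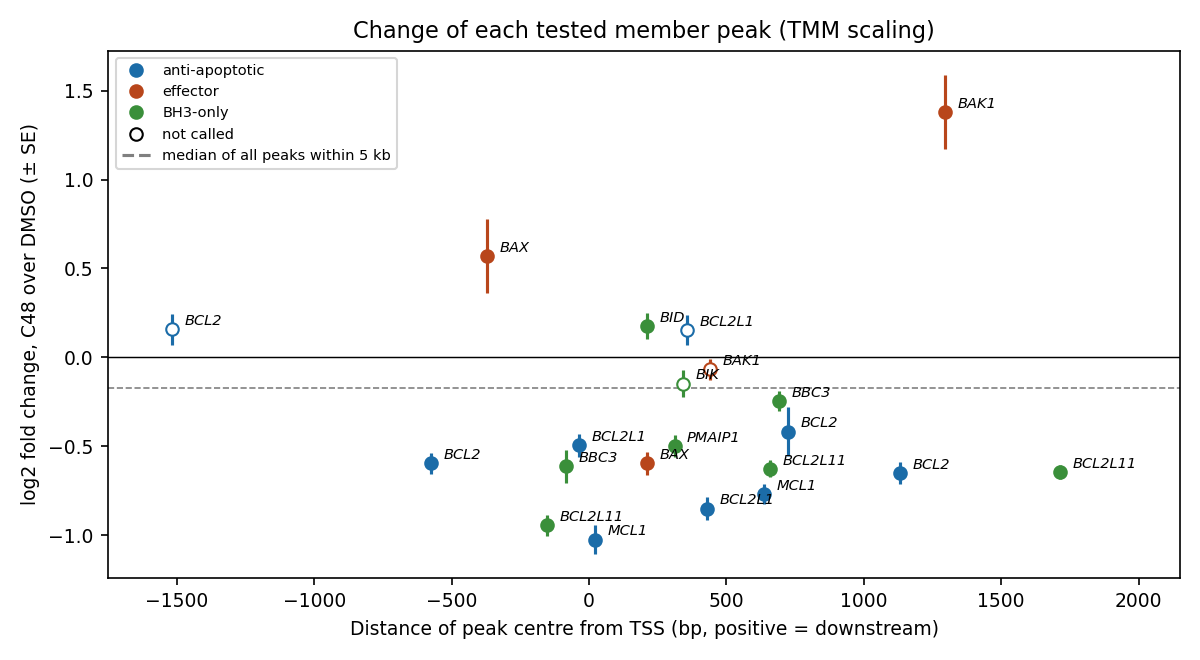
log2 fold change, C48 over DMSO with TMM scaling, ± SE (y axis), of the 21 tested member peaks by distance of the peak centre from the TSS (x axis, bp, positive downstream), coloured by role, with open points for peaks that did not pass the test and a dashed line at -0.17, the median of all tested peaks within 5 kb. The BAK1 peak at 1297 bp is the highest at 1.38 and the MCL1 peak at 20 bp the lowest at -1.03. The 3 BCL2L1 peaks are each measured from the start of a different transcript, so their order on the x axis is not their order along the gene.

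**Figure D3:**
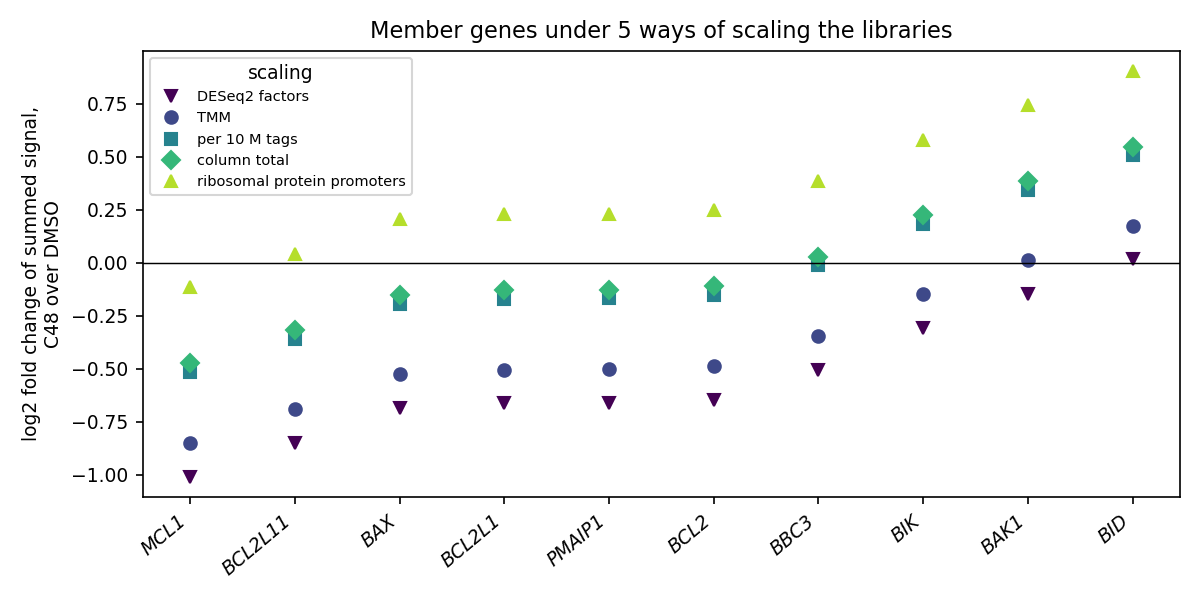
log2 fold change of summed H3K4me3, C48 over DMSO (y axis), of each gene (x axis, ordered by the TMM value) under 5 ways of scaling the libraries, shown as different markers. MCL1 is below 0 and BID above 0 on every scale, while BCL2L11 runs from -0.85 with DESeq2 factors to 0.041 on the ribosomal protein scale.

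A ratio between parts of 1 gene does not depend on how libraries are scaled. Signal over 500 bp and up to 5 kb from the TSS, the shoulder, was divided by signal within 500 bp, the core. Only MCL1, BAK1, BBC3 and BCL2L11 had peaks with a mean of at least 5 in both parts, and the other 6 genes were not tested. The BAK1 ratio was 0.081 and 0.11 in C48 cells and 0.031 and 0.040 in DMSO cells, a log2 difference of 1.31 ± 0.20 (limma adjusted p = 0.0019). The BBC3 ratio was 3.40 and 3.02 in C48 cells and 2.36 and 2.59 in DMSO cells (0.37 ± 0.097, limma adjusted p = 0.015), and the BCL2L11 ratio was 5.32 and 5.49 in C48 cells and 4.57 and 4.16 in DMSO cells (0.31 ± 0.091, limma adjusted p = 0.023). In each of these 3 genes the C48 ratios lay above the DMSO ratios. The MCL1 ratio, 2.73 and 2.295 in C48 cells and 2.21 and 1.98 in DMSO cells, was higher by 0.26 ± 0.11 but did not pass the test (limma adjusted p = 0.082), and it did with the replicate number as a block (limma adjusted p = 0.034) and without C48 replicate 2 (0.38, limma adjusted p = 0.039). Over all 5609 genes tested, 73.5% had a higher and 6.53% a lower ratio in C48 cells, with a median of 0.69, so the ratios of MCL1, BBC3 and BCL2L11 lay below the middle of all genes (percentiles 24.1, 29.3 and 26.5) and that of BAK1 above it (percentile 79.9). With the core widened to 1 kb, BAK1 alone of the 3 genes that could then be tested passed (1.31, against 0.18 for BCL2 and 0.091 for BCL2L11). The BBC3 call was lost without C48 replicate 1 or DMSO replicate 1 (limma adjusted p = 0.081 and 0.067). The BCL2L11 call was lost without C48 replicate 1, C48 replicate 2 or DMSO replicate 2 (limma adjusted p = 0.073, 0.11 and 0.098).

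CpG content, which the choice of members did not use, ran from 1.98 CG dinucleotides per 100 bases in the untested BAK1 peak to 17.2 in the BBC3 peak 83 bp upstream. The median of the 27119 tested peaks within 5 kb for which the hg38 sequence was read was 7.08, with quartiles of 4.22 and 9.51. The peaks that rose were CpG-poor or near the middle, at 2.56 for BAK1 1297 bp downstream, 2.86 for BAX 371 bp upstream and 6.79 for BID. The strong BAK1 peak, which did not pass the test, held 2.66, so that all BAK1 peaks lay below the lower quartile of 4.22. Across the 21 member peaks Pearson's r between CpG density and log2 fold change was -0.62, against -0.54 across the 27119 peaks. These are descriptions across peaks that share the same 4 libraries, and peaks of 1 gene share sequence context. MCL1 at 20 bp was an exception to the trend, with 6.32 CG dinucleotides per 100 bases and the lowest fold change, and BIK another, with 12.8 and -0.15. The part of CpG density in the fold changes was not tested.

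**Figure D4:**
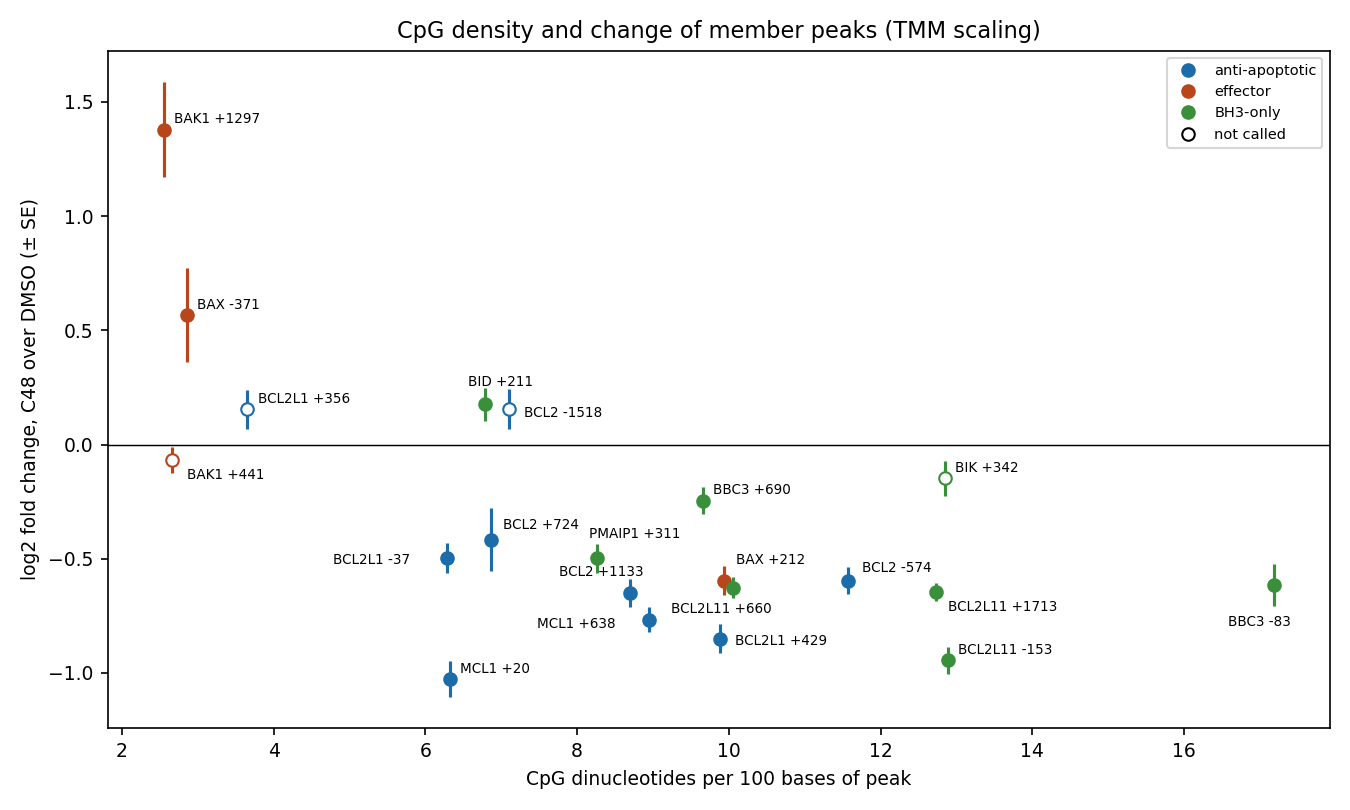
log2 fold change, C48 over DMSO with TMM scaling, ± SE (y axis), of the 21 tested member peaks against their CG dinucleotides per 100 bases (x axis), coloured by role, with open points for peaks that did not pass the test and the distance to the TSS in bp beside each gene name. The BAK1 peak at 2.56 and the BAX peak at 2.86 lie at the upper left, and all peaks over 8 per 100 bases lie below 0.

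The rest of the apoptosis machinery was read from 5 lists, of which 46 of 53 genes were tested. With TMM 10 rose, 31 fell and 5 did not pass the test, with a median of -0.32. Among all genes 21.6% rose and 60.5% fell with a median of -0.31, so the 5 lists together were near this background, and the genes below are given as values. All 9 genes of the apoptosome and caspase list fell with TMM (median -0.74), and 4 rose and 4 fell on the ribosomal protein scale. Its extremes were CASP9, the initiator caspase of the mitochondrial pathway, with 325 and 318 tags in C48 cells against 680 and 661 tags in DMSO cells, and APAF1, the scaffold that activates it, with 1796 and 1803 tags in C48 cells against 3616 and 3656 tags in DMSO cells. Their changes of -1.06 and -1.01 (limma adjusted p = 7.90e-52 and 4.38e-81) were larger than that of any of the 10 family sums and stayed below 0 on all 5 scales (-0.33 and -0.28 on the ribosomal protein scale).

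Of 10 tested genes on the list of other relatives and binding partners of BCL2, 2 rose (BAD and HRK) and 7 fell, with a median of -0.33 that was 0.40 on the ribosomal protein scale. The BNIP genes of this list are named for binding and not for descent. BNIP3L, a mitophagy receptor, had 174 and 198 tags in C48 cells against 361 and 386 tags in DMSO cells (-1.01), and BNIP2 had 511 and 492 tags in C48 cells against 894 and 895 tags in DMSO cells (-0.83), both below 0 on all 5 scales. Of 5 tested inhibitors of apoptosis, 4 fell and 1 rose (BIRC3), while on the ribosomal protein scale 3 rose and 0 fell. BIRC6 and BIRC2, ubiquitin ligases that restrain caspases and death receptor signalling, changed by -0.71 and -0.69, and by 0.021 and 0.043 on the ribosomal protein scale.

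The death receptor list was mixed with TMM, with 5 genes that rose, 5 that fell and 4 that did not pass the test (median 0.035), while on the ribosomal protein scale 13 rose and 0 fell. On that scale 11665 of all 15615 gene sums rose and 1030 fell. TNFSF10, which encodes the death ligand TRAIL, had 80.5 and 75.3 tags in C48 cells against 18.9 and 22.5 tags in DMSO cells. The groups did not overlap and the change of 1.87 ± 0.14 (limma adjusted p = 8.00e-28) was between 1.71 and 2.58 on all 5 scales. TNFRSF10C, a decoy receptor for TRAIL and 1 of the 5 genes counted as higher, had 8.35 and 6.04 tags in C48 cells against 3.04 and 1.74 tags in DMSO cells. It reached the minimum only through its C48 libraries and had to differ, so its values are a description. CASP8, the protease that cleaves BID, rose by 0.30 on the log2 scale. In the p53 list 2 of 8 genes rose and 6 fell with TMM, and all 8 rose on the ribosomal protein scale, where most of all gene sums rose too. TP63, a p53 relative of basal epithelium, had 40.6 and 41.8 tags in C48 cells against 7.60 and 13.9 tags in DMSO cells (1.90 ± 0.19, limma adjusted p = 5.15e-18), and MDM4, an inhibitor of p53, changed by -0.42 (0.31 on the ribosomal protein scale).

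**Figure D5:**
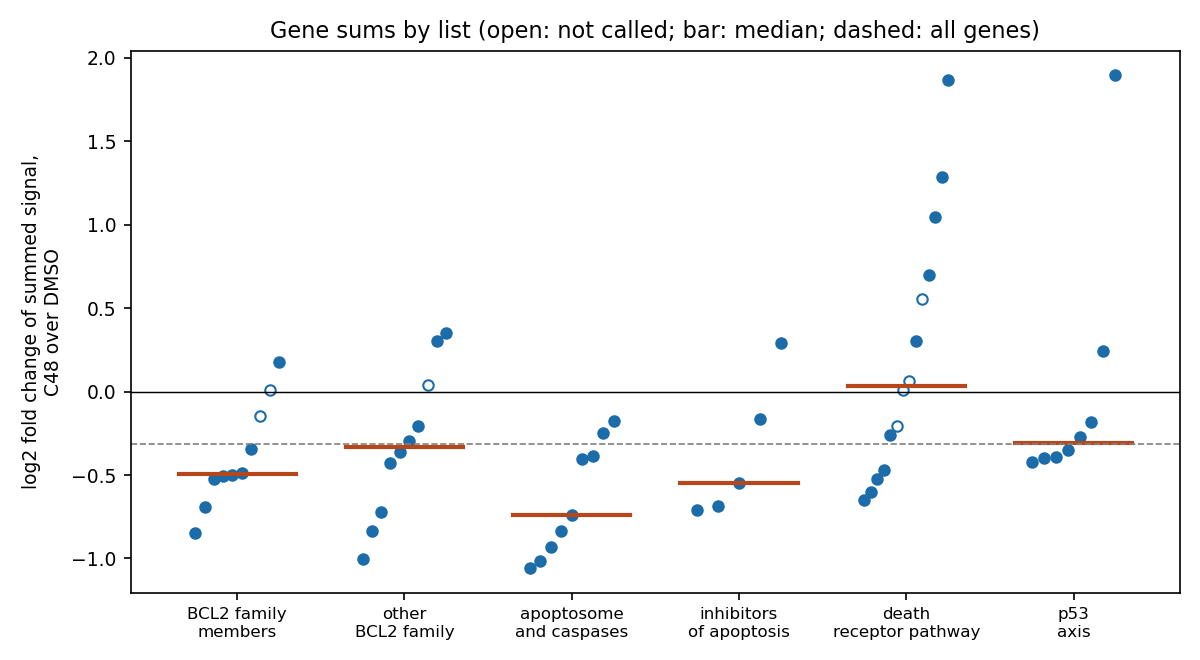
log2 fold change of summed H3K4me3 within 5 kb, C48 over DMSO with TMM scaling (y axis), of each tested gene in the BCL2 family and the 5 apoptosis lists (x axis), with open points for genes that did not pass the test, a bar at each list's median and a dashed line at -0.31, the median of all genes. All 9 apoptosome and caspase genes lie below 0, and TNFSF10 at 1.87 and TP63 at 1.90 are the highest points.

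Peaks annotated to the 10 genes at more than 5 kb numbered 36, of which 7 reached the mean of 5. Of these, 2 rose with TMM, 0 fell by limma (0 at an unadjusted p of 0.05, and 0 by edgeR) and 5 did not pass the test, with a median of 0.34, beside 50.4% that rose and 11.3% that fell among all peaks over 5 kb from a TSS (median 0.48). The peak 110348 bp from PMAIP1 had 26.6 and 21.3 tags in C48 cells and 7.48 and 12.2 tags in DMSO cells (1.23 ± 0.22, limma adjusted p = 2.12e-06). The other, in a BCL2 intron 163862 bp from the TSS, had deposited values of 14.9 and 10.5 in C48 cells and 3.73 and 5.42 in DMSO cells. It reached the mean of 5 only through its C48 libraries, so that it had to differ, and its difference is given as a description. The same held for the BCL2 peak 59599 bp from the TSS, which did not pass the test. Its deposited values were 6.68 and 5.23 in C48 cells and 4.30 and 4.49 in DMSO cells. All counts and the median of the 7 peaks include these BCL2 peaks, and so lean upward through the filter. The 2 distant peaks that rose were weak beside the promoter peaks of the same genes, most of which fell with TMM, and the nearest TSS does not show which gene a distant peak acts on. On the ribosomal protein scale 6 of the 7 distant peaks rose and 0 fell, and with DESeq2 factors 2 rose and 0 fell. Of all 43712 tested peaks at any distance, 34117 rose and 2371 fell on the ribosomal protein scale. With DESeq2 factors 13122 rose and 17359 fell. The share among peaks over 5 kb from a TSS was not counted on these scales.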

How the data were processed

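H3K4me3 was profiled by CUT&Tag in 2 C48 and 2 DMSO libraries of HCC1428 cells, grouped by the sample titles. Reads were aligned by the authors to hg38 (Bowtie2 2.3.4.1), and tags in merged peaks were counted with HOMER (version: not given in the sources used here). Per peak and library, the deposited signal values are tags per 10 M aligned tags, without a spike-in factor, and the deposited list of libraries in which HOMER detected a peak was read as another label. That list also names libraries of other cell lines. Spike-in counts were not used here, nor were the repeat table or the authors' peak score, so a change common to all regions is invisible here.

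Columns were scaled with TMM factors (edgeR 4.0.16, R 4.3.3) computed on peaks with a mean of at least 5, and tested with limma-trend (limma 3.58.1) on log2(scaled value + 1), a scale that understates the change of weak peaks. P-values were adjusted by Benjamini-Hochberg over all 43712 peaks, 15615 gene sums or 5609 ratios tested, with calls at 0.05. A two-sided exact permutation test of 2 against 2 libraries allows no p below 0.333. Whole tags were recovered from the value steps (100% of low values within 0.1 tags). The edgeR quasi-likelihood test on them called 31226 of 43712 peaks, and limma also called 31039 of these in the same direction. HOMER tags of a pair and PCR copies are not independent molecules. Alternatives were other scalings (column total, DESeq2 1.42.0 factors, ribosomal protein promoters, as deposited), tests, pseudocounts of 0.5 and 5, no filter, other windows, a replicate block and leaving out each library.

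The members and lists were chosen with earlier results of these data known. All member peaks and, of each apoptosis list, the 2 called genes with the largest absolute fold change were named; BAD, HRK, BIRC3 and CASP8 were named after their values were seen. Starts of neighbouring genes came from GENCODE release 44. Code was tested on simulated data. Plots used matplotlib 3.10.9 and Python 3.11.15. The sequence of 1 member peak is not reported here.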

Additional observations from a re-analysis of the deposited data

How the results depend on the processing

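With the values as deposited, 7 member peaks and 3 gene sums rose, while 12 peaks and 6 sums fell. The values that turned positive were the BAK1 peak at 441 bp (0.26), the BBC3 peak at 690 bp (0.086) and BIK (0.18, peak and sum). On the column total, 8 peaks and 3 sums rose, while 10 peaks and 5 sums fell. There BAK1 at 441 bp (0.31), BBC3 at 690 bp (0.13), the BBC3 sum (0.030) and BIK (0.22, peak and sum) turned positive. With DESeq2 factors 1 peak and 0 sums rose, while 16 peaks and 9 sums fell. The BCL2 peak 1518 bp upstream (-0.0026), the BCL2L1 peak at 356 bp (-0.0052) and the BAK1 sum (-0.15) turned negative. BIK (-0.31) and BAK1 at 441 bp (-0.23) passed as lower. Of all 27166 tested peaks within 5 kb, 12593 rose and 8294 fell as deposited. On the column total 13342 rose and 7679 fell, and with DESeq2 factors 6293 rose and 14779 fell. Of all 15615 gene sums, 6670 rose and 5322 fell on the column total.

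On the ribosomal protein scale 13 peaks rose and 2 fell, and 8 sums rose and 1 fell. Most peaks within 5 kb (20013 of 27166) and most gene sums (11665 of 15615) rose on this scale as well. Member peaks that turned positive were BCL2 574 bp upstream (0.13), at 724 bp (0.30) and at 1133 bp (0.081), BCL2L1 37 bp upstream (0.23), BAX at 212 bp (0.13), BAK1 at 441 bp (0.66), BBC3 83 bp upstream (0.11) and at 690 bp (0.48), BCL2L11 at 660 bp (0.11) and 1713 bp (0.087), PMAIP1 (0.23) and BIK (0.58). Sums that did so were BCL2 (0.25), BCL2L1 (0.23), BAX (0.21), BBC3 (0.39), BCL2L11 (0.041), PMAIP1 (0.23) and BIK (0.58). The cause was not tested. The study scaled its libraries on spike-in nuclei, whose counts were not used here, so the direction of a change shared by all regions was not tested.

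With the DESeq2 Wald test on recovered tags 1 peak and 0 sums rose, against 3 and 1 by limma, while edgeR gave the calls of limma at every member. Within 1 kb the BAK1 sum was -0.067, as only its nearest peak was left, and with a 1 kb core 1 ratio rose. Leaving out 1 library at a time, 1 to 3 peaks, 0 to 1 sums and 1 to 3 ratios rose, and the BAK1 sum ran from -0.016 to 0.040. In such fits the lone library of a group was assumed to vary like the other group.

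The replicate numbers were no sign of pairing, as the differences between replicates 1 and 2 of C48 and DMSO correlated at -0.031. Adding a replicate block gave 1 sum that rose and 7 that fell, the BCL2L11 sum at -0.69, and changed 1 call, the MCL1 ratio of 0.26, which then passed. Pseudocounts and the filter on low values changed no member call. The BAK1 and BAX side peaks and the distant peaks rest on few tags and are the least certain values.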

Other observations

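More values of the receptor-driven arm of apoptosis and of relatives of BCL2 follow, for genes chosen after their values were seen. FASLG, the ligand of the FAS receptor, had 28.3 and 29.8 tags in C48 cells against 13.8 and 13.2 tags in DMSO cells (log2 fold change 1.05 ± 0.20, limma adjusted p = 3.65e-07), while FAS itself had 277 and 291 tags in C48 cells against 442 and 449 tags in DMSO cells (-0.65). CASP10 had 18.5 and 16.8 tags in C48 cells against 10.5 tags in each DMSO library (0.70 ± 0.23). CASP8, with a broader promoter signal, had 570 and 533 tags in C48 cells against 435 and 458 tags in DMSO cells (0.30). FASLG and CASP8 stayed above 0 on all 5 scales. Among the relatives of BCL2, BAD had 305 and 324 tags in C48 cells against 270 and 241 tags in DMSO cells (0.30) and HRK had 241 and 240 tags in C48 cells against 181 and 196 tags in DMSO cells (0.35), and both stayed above 0 on all 5 scales.

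HOMER annotated 7 of the 21 tested member peaks (33.3%) as CpG island and 0 as repeat, against 16.5% and 5.49% of all tested peaks within 5 kb. It gives each peak 1 label, so that a peak in a CpG island and an exon can bear only the exon label. The median log2 fold change of CpG island peaks was -0.50 for the 7 member peaks and -0.38 for the 4490 peaks of that label.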
